A study of Mus musculus with 10 samples.

Results

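Potassium and voltage-gated calcium channel subunits were examined in the infrarenal aorta of mice 7 days after elastase infusion. Members were the gene names on the array that begin with Kcn followed by a subunit code, or with Cacn followed by the code of a pore, alpha2delta, beta or gamma subunit. This gave 118 of the 35527 gene names, 92 of potassium channels and 26 of calcium channels, read by 173 probes. Both groups were male C57BL/6J mice of 10 weeks on a normal diet, and both had the infrarenal aorta tied off and infused for 5 min at 100 mmHg. The sham group (5 mice) received saline. The PPE group (5 mice) received saline with type I porcine pancreatic elastase at 1.5 U/mL, an enzyme that digests elastin and leads to an abdominal aortic aneurysm. Each array held 500 ng RNA of 1 aorta in the red dye and a universal mouse reference RNA in the green dye, so a value is the log2 ratio of aorta over reference. The sham animals were operated too, so the comparison is between elastase and saline, not between operated and untouched aorta.

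These channels set the contraction of arterial muscle. Calcium enters smooth muscle cells through voltage-gated calcium channels and drives contraction, whereas potassium leaving the cell makes its membrane more negative and closes them. Leukocytes, nerve fibres, endothelium and striated muscle use other sets of the same families. A pore subunit forms the channel, and accessory subunits change its gating or carry it to the membrane.

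A gene was tested if the red signal of its probe was well above background on 5 or more of the 10 arrays. Of the 118 members, 71 were tested, each by its brightest tested probe, and 38 of these were above background on all 10 arrays. A further 18 members were above background on 1 to 4 arrays and 29 on none, and these 47 are given neither as changed nor as unchanged. No filter was set on the green reference signal. For some tested probes, among them those of Cacna1d, Kcnj10, Kcna2, Kcnn2 and Cacnb4, it was well above background on none of the 10 arrays. Their ratios therefore set the red signal against a reference near background. Sham 5 and PPE 5 had the smallest share of member probes above background, 29.5% and 32.9%, against 40.5% to 64.2% on the other arrays. Probe positions below are on the mouse build mm9, as in the file headers, and were not assigned to exons or UTRs here.

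To show what was hybridised, the first 30 bases of 6 of the 60-base probes are printed below. They were chosen because they read the subunit with the largest change, the pore and beta subunits of the large-conductance calcium-activated (BK) channel, the pore of the main arterial calcium channel, and a pair of potassium channels that rose. All are in lower case, since no base is singled out. Kcnab1 lies at chr3:65181718-65181777, plus strand, Kcnmb1 at chr11:33870457-33870516, plus strand, and Kcnma1 at chr14:24126279-24126338, minus strand. Cacna1c lies at chr6:118544079-118544138, minus strand, Kcnk13 at chr12:101300491-101300550, plus strand, and Kcnn4 at chr7:25169184-25169782, plus strand, a span longer than the probe.
Kcnab1: ggggtttttgttgttgttttgttttctgta
Kcnmb1: catttgttcaacatctttggaaagctgttt
Kcnma1: tgggtgggcagtcaatgtatacatgtaaat
Cacna1c: tgacgcctgcgacatgacaatagaggagat
Kcnk13: caacaaacattccagagtgtctctgggcct
Kcnn4: gccacatagctccacatgaactcacagaag
The G and C content of the whole probes ran from 35.0% for Kcnab1 to 55.0% for Cacna1c. Levels of different probes were therefore not set against each other.

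After PPE, 9 channel subunits fell and 6 rose at a limma adjusted p under 0.01. Among the 9 that fell, 8 of them potassium channel subunits, were Kcnab1, Kcnd3, Kcns3, Kcnh2, Kcnmb1, Kcnc4, Kcnk3 and Cacna2d1. The 6 that rose were Kcnj15, Kcnk13, Kcnn4, Kcnk6, Kcna3 and Cacnb3. The 9 lower were 12.7% of the 71 tested members, beside 9.96% of all 22520 names tested. The 6 higher were 8.45%, beside 13.8% of all names, so members were called in both directions at rates near or under those of the whole array. The median log2 difference was -0.10 over tested members and 0.02 over all names. Values of the groups did not overlap for 12 members, or 16.9% beside 25.5% of all names, and 11 of these 12 were among the 15 called. At an unadjusted limma p under 0.05, 18 members were lower and 9 higher. This was not counted over all names, so no tilt in direction is read from it. With the scanner's own log ratio in place of the normalization used here, 10 members were lower and 4 higher. Over all 22520 names that setting gave 3089 lower and 3164 higher. Centring each array on its median in place of loess moved the median of all names by 0.39. No member was then called in either direction, with 12 at an unadjusted limma p under 0.05, also not counted over all names.

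**Figure D1:**
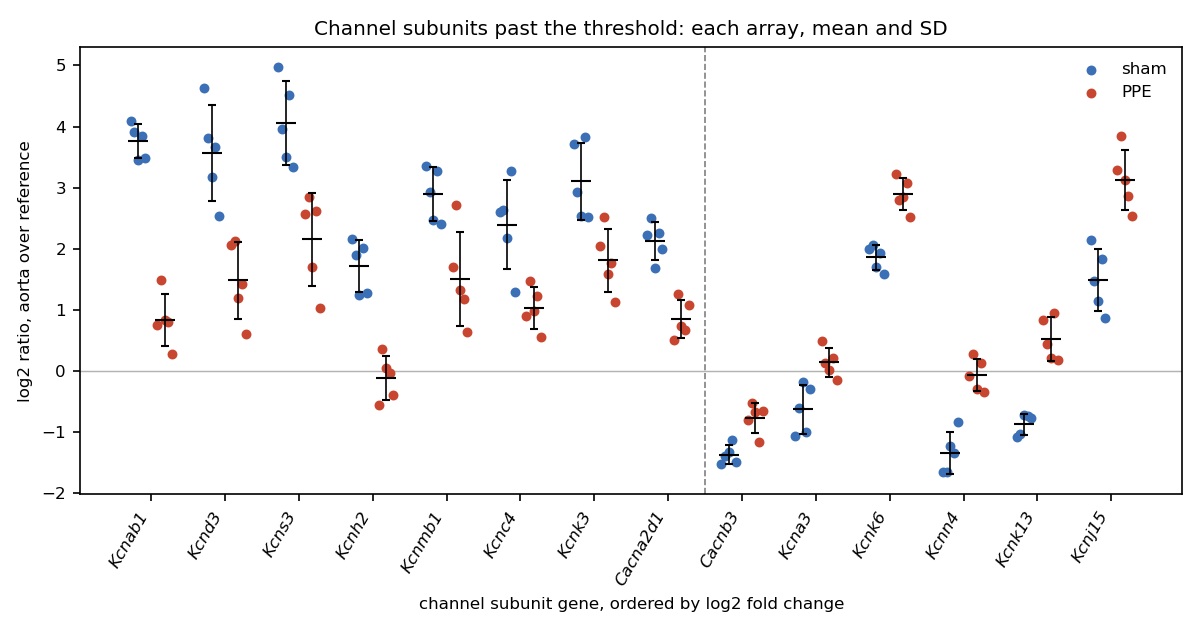
Log2 ratio of aorta over reference for 14 of the 15 channel subunits past the threshold, with 5 sham arrays in blue, 5 PPE arrays in red, and the mean with its SD in black. The genes left of the dashed line were lower after PPE, led by Kcnab1 (-2.93), and those right of it higher, led by Kcnj15 (1.64).

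Markers of several cell types differed between the groups. Of 10 smooth muscle markers 8 fell, and the mean log2 ratio of the list ran from 3.02 to 4.19 in sham and from 1.54 to 2.69 after PPE. Macrophage markers rose for 7 of 9 genes, with list means of 0.55 to 1.09 in sham and 2.42 to 3.32 after PPE. Of the other two, Cd163 gave -0.46 and Itgam 0.44, each with an unadjusted p under 0.05 and neither past the threshold. Neutrophil markers rose for 4 of 6 tested genes and T cell markers for 4 of 7. Of 8 endothelial markers none passed limma's threshold, with 1 higher and 1 lower at an unadjusted p under 0.05, and their list mean ran from 2.55 to 3.55 in sham and from 2.61 to 3.67 after PPE. In such bulk tissue, fewer cells of a type and less RNA per cell cannot be told apart, and the part of these shifts in the channel results was not tested. PPE 2 had the highest smooth muscle list mean of the PPE arrays (2.69, next 1.79), and it was also the highest PPE array for all 9 channel subunits that fell. Of all names that fell, PPE 2 was the highest PPE array for 47.8%. Without PPE 2, the same 9 were called lower. PPE 5 was the lowest PPE array for 7 of these 9, and for 35.8% of all names that fell. Its smooth muscle list mean was 1.66, with PPE 3 lowest at 1.54. Red signal was well above background for 45.8% of spots on PPE 5 and 65.3% on PPE 2. The part of smooth muscle or of array signal in these orders was not tested.

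Of the 30 pore subunits of voltage-gated potassium (Kv) channels, 20 were tested, and 4 fell, 1 rose and 15 did not pass the threshold. Over all names 9.96% were lower and 13.8% higher, the shares to set beside each count by role here and below. The median log2 difference of the 20 was -0.11, beside 0.02 over all names. Kcnd3, Kcnh2 and Kcnc4 were among the 4 that fell.

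Kcnd3 encodes Kv4.3, a pore of the fast inactivating A-type current. Its log2 ratios were 4.64, 3.81, 3.17, 3.67 and 2.53 in sham 1 to 5 and 2.06, 2.12, 1.18, 1.42 and 0.60 in PPE 1 to 5. Every PPE array lay below every sham array. The mean fell from 3.56 ± 0.78 (SD, n = 5) to 1.48 ± 0.64, a log2 difference of -2.09 (SE 0.39, 4.24-fold lower, limma adjusted p = 0.0014). Kcnd1, the pore of Kv4.1, gave 0.12 (95% interval -0.16 to 0.40) on its brightest probe and -0.03 and 0.70 on 2 other probes, and was called by none of them.

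Kcnh2 encodes the ERG channel, best known from the repolarisation of the heart. Sham 1 to 5 read 2.16, 1.89, 1.25, 2.01 and 1.27, and PPE 1 to 5 read -0.56, 0.36, 0.05, -0.03 and -0.40. The groups were separate, with sham 3 and sham 5 the lowest of the sham arrays. The log2 difference was -1.83 (SE 0.23, 3.56-fold lower, limma adjusted p = 8.1e-05). Of 5 tested cardiac muscle markers 1 fell past limma's threshold and 3, this one included, were lower at an unadjusted p under 0.05. Their list means ran from 0.82 to 1.79 in sham and from -0.06 to 0.59 after PPE. The part of these markers in the fall of Kcnh2 was not tested.

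Kcnq1 and Kcnq5 encode Kv7 pores found in arteries, and neither passed the threshold. Kcnq1 gave 0.30 (95% interval -0.15 to 0.75) and Kcnq5 gave -0.35 (-0.90 to 0.20).

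Kcnc4 encodes Kv3.4, a pore of rapidly opening channels. In sham 1 to 5 it read 2.60, 2.62, 2.17, 3.28 and 1.29, and in PPE 1 to 5 it read 0.89, 1.47, 0.98, 1.22 and 0.55. Sham 5 lay below PPE 2, so the groups overlapped. The fall was 1.37 (SE 0.31, 2.59-fold, limma adjusted p = 0.0052). Leaving out sham 1, 2 or 4 or PPE 1, 3, 4 or 5 took the adjusted p past the threshold, to at most 0.0155, and testing all probes with no filter on dim signal also ended the call.

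Kcna3 encodes Kv1.3, the main voltage-gated potassium channel of T cells, also present in macrophages. It read -1.08, -0.62, -0.18, -1.01 and -0.30 in sham, where it was well above background on 2 of 5 arrays, and 0.48, 0.12, 0.02, 0.21 and -0.15 after PPE, where it was above on all 5. PPE 5 was only just above sham 3. The rise was 0.77 on the log2 scale (SE 0.19, 1.71-fold, limma adjusted p = 0.0086), and it was not called without sham 1, 2 or 4 or without PPE 1, 2, 3 or 4, with adjusted p up to 0.0245. It was also not called with slide or scan day as a fixed block or with no filter on dim signal. T cell markers rose in the same arrays, with list means of -0.79 to 0.30 in sham and 0.95 to 2.07 after PPE, and their part in the rise was not tested.

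Kcna5 encodes Kv1.5, a delayed rectifier of arterial muscle. Its sham values were 0.62, 0.16, -0.01, 0.68 and 0.42 and its PPE values 0.46, 0.41, -0.24, -0.08 and 0.53. The groups overlapped over most of their range, with a log2 difference of -0.16 (95% interval -0.57 to 0.26), and a dimmer probe of the gene gave -0.66 (SE 0.37).

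Kcna1, Kcna2 and Kcna6 encode Kv1.1, Kv1.2 and Kv1.6, pores found in nerve fibres and also in arterial muscle. Their log2 differences were 0.51 (95% interval -0.59 to 1.60), 0.20 (-0.51 to 0.91) and 0.76 (-0.03 to 1.56), and none passed. Kcna6 ranged from 2.33 to 4.50 in sham and from 3.79 to 5.05 after PPE, and a dimmer probe of it gave a difference of 0.19 (SE 0.16). On their brightest probes, sham 5 was the lowest of all 10 arrays for each of these 3 genes. Sham 5 also had the lowest list mean of nerve and Schwann cell markers, 0.82, against 1.78 to 3.22 on the other arrays. The part of nerve tissue in the spread of these genes was not tested.

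Silent Kv subunits form no channel alone and modify other Kv pores. Of 10 members, Kcns3 was the only tested one. Kcns3 (Kv9.3) read 4.97, 3.96, 3.49, 4.51 and 3.34 in sham and 2.57, 2.84, 1.70, 2.62 and 1.02 after PPE. All PPE arrays were below all sham arrays. The fall was 1.90 (SE 0.39, 3.74-fold, limma adjusted p = 0.0028), and it was not called with the scanner's own log ratio or the deposited processed ratios.

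Among the 11 accessory Kv subunits, 6 were tested and 1 fell. That gene, Kcnab1, showed the largest change of any member. It encodes a cytoplasmic beta subunit that binds Kv1 pores and speeds their inactivation. Its values were 4.09, 3.92, 3.45, 3.85 and 3.49 in sham and 0.76, 1.48, 0.83, 0.79 and 0.28 after PPE. Sham 3, the lowest sham array, lay far above PPE 2, the highest PPE array. The mean fell from 3.76 ± 0.28 (SD, n = 5) to 0.83 ± 0.43, a log2 difference of -2.93 (SE 0.21, 7.63-fold lower, limma adjusted p = 1.79e-06). On slide 1 alone, which held sham 1, PPE 1 and PPE 2, the difference was -2.97. On slide 2 alone it was -2.88, and both slides are part of the main fit. Kcnab2, the beta subunit typical of nerve and leukocytes, was well above background on no array.

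Kcnip4, which encodes a calcium-binding partner of Kv4 pores, ran from 1.45 to 3.78 in sham and from 0.51 to 2.52 after PPE. The groups overlapped, and the difference of -1.24 (95% interval -2.22 to -0.26) had a limma adjusted p of 0.0502, but 7 alternative settings called it. A dimmer Kcnip4 probe gave -0.36 (SE 0.18). The small membrane subunits Kcne3 and Kcne4, which bind Kv7 and other pores, gave 0.54 (-0.13 to 1.21) and 0.62 (-0.27 to 1.50). Neither passed the threshold, and in both PPE 5 was the lowest PPE array.

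**Figure D2:**
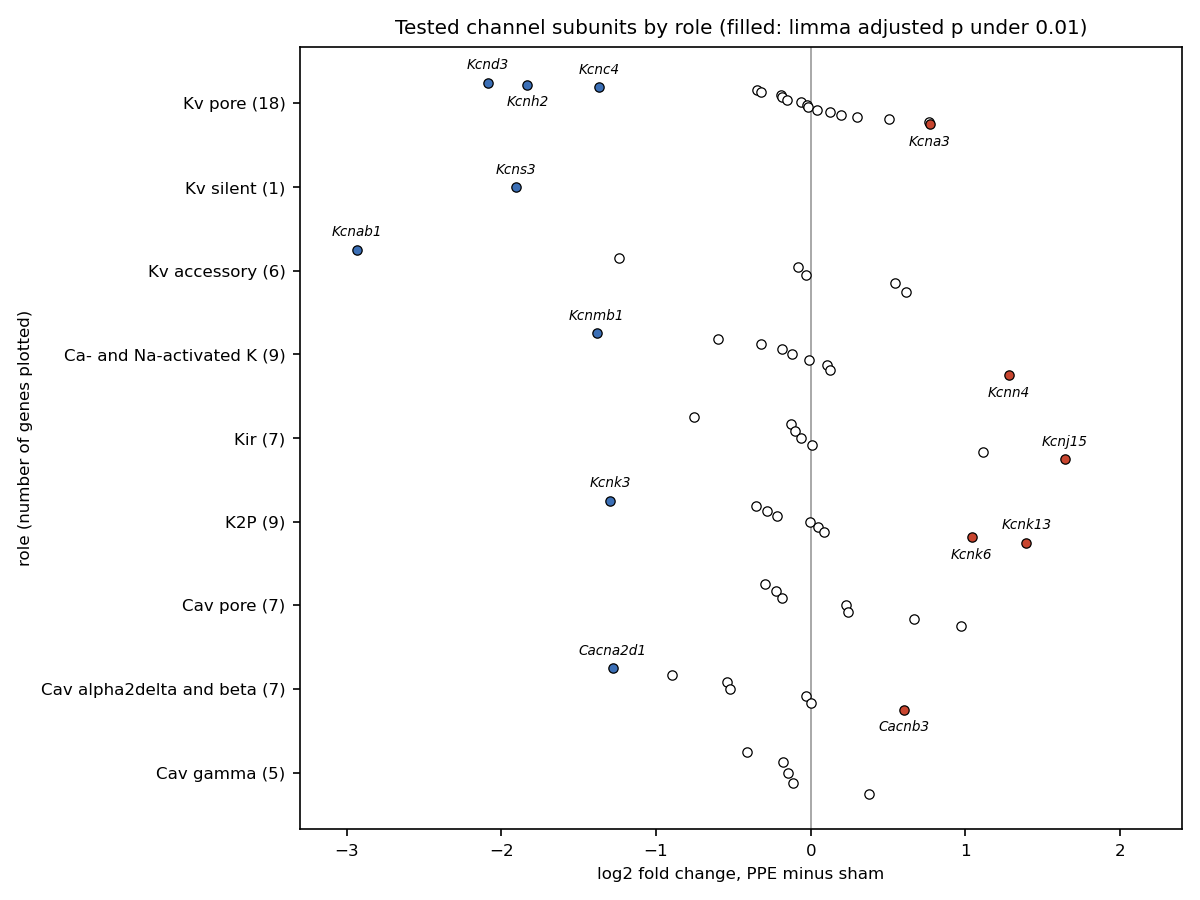
Log2 fold change (PPE minus sham) of 69 of the 71 tested channel subunits, 1 point per gene, grouped by role with the number of genes plotted in brackets. Filled points passed a limma adjusted p of 0.01, in blue for lower and red for higher. Calcium channel pores and the calcium channel gamma family had none.

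Of 12 subunits of calcium- and sodium-activated potassium channels, 9 were tested, and 1 fell and 1 rose. The fall was in Kcnmb1, the beta1 subunit that raises the calcium sensitivity of BK channels in smooth muscle. Kcnmb1 read 3.36, 2.93, 2.47, 3.28 and 2.41 in sham and 1.69, 2.71, 1.32, 1.17 and 0.63 after PPE. PPE 2 lay inside the sham range and the other PPE arrays below it. The mean fell from 2.89 ± 0.44 (SD, n = 5) to 1.50 ± 0.77, a log2 difference of -1.38 (SE 0.34, 2.61-fold lower, limma adjusted p = 0.0084). This call was the least stable of the 15 and was lost under 14 of 25 alternatives. It was lost without sham 1, 2, 3 or 4 or PPE 1, 3, 4 or 5 (adjusted p up to 0.0251), with the smaller background offset, with the scanner's or the deposited ratios, with no filter on dim signal, and with sham 5 and PPE 5 both left out.

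Kcnma1 encodes the BK pore itself. It read 3.99, 3.48, 2.90, 3.83 and 2.64 in sham and 3.41, 3.68, 3.25, 2.78 and 2.12 after PPE. The groups overlapped over most of their range, with a log2 difference of -0.32 (95% interval -1.04 to 0.40, limma adjusted p = 0.505). Its 2 other tested probes gave -0.50 (SE 0.42) and 0.01 (SE 0.35). The difference between the beta1 and pore changes was not tested. Kcnmb4, the beta subunit typical of neurons, gave 0.12 (-1.02 to 1.26), with sham values from -0.88 to 2.43 and PPE values from 0.49 to 1.21.

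Kcnn4 encodes the intermediate-conductance channel of leukocytes, endothelium and dividing smooth muscle cells. Its values were -1.67, -1.66, -1.23, -1.36 and -0.84 in sham and -0.09, 0.28, -0.29, 0.12 and -0.35 after PPE. Every PPE array lay above every sham array. The mean rose from -1.35 ± 0.34 (SD, n = 5) to -0.07 ± 0.27, a log2 difference of 1.28 (SE 0.18, 2.43-fold, limma adjusted p = 0.000218). The small-conductance channels Kcnn2 and Kcnn3, of nerve and of endothelium among other cells, gave -0.01 (-0.54 to 0.52) and -0.19 (-0.59 to 0.21).

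Inward rectifiers (Kir) let potassium pass near the resting potential, and some of them answer to ATP or to G proteins. Of 15 members 7 were tested and 1 rose. This was Kcnj15 (Kir4.2), at 2.13, 1.47, 1.14, 1.84 and 0.87 in sham and 3.29, 3.85, 3.12, 2.85 and 2.54 after PPE. The groups were separate. The rise was 1.64 on the log2 scale (SE 0.28, 3.12-fold, limma adjusted p = 0.000761), and it was not called with the scanner's or the deposited ratios. Its close relative Kcnj10 (Kir4.1), known from glia, ran from -0.13 to 2.36 in sham and from 1.29 to 3.27 after PPE. The difference of 1.12 (95% interval 0.03 to 2.20, limma adjusted p = 0.105) did not pass, and sham 5 was the lowest array here too.

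Kcnj8 encodes Kir6.1, the pore of the vascular ATP-sensitive channel. It read 3.55, 2.97, 2.28, 2.65 and 2.24 in sham and 3.52, 3.11, 2.35, 2.84 and 1.34 after PPE. Apart from PPE 5 the PPE values lay inside the sham range, and the log2 difference was -0.10 (95% interval -0.95 to 0.74). Kcnj11, the related pore Kir6.2, was well above background on 4 sham arrays and on no PPE array, and it was not tested. Kcnj2 (Kir2.1) was above background on no sham array and on 2 PPE arrays.

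The K2P family carries background potassium currents. Of 14 members 9 were tested, and 2 rose and 1 fell. Kcnk13 (THIK-1), a channel known from microglia, read -1.08, -1.04, -0.73, -0.74 and -0.78 in sham and 0.82, 0.44, 0.20, 0.95 and 0.17 after PPE. The groups were separate by a wide gap. The rise was 1.39 (SE 0.17, 2.63-fold, limma adjusted p = 7.23e-05). Kcnk6 (TWIK-2), a channel known from macrophages and vascular muscle, read 1.99, 2.05, 1.71, 1.93 and 1.59 in sham and 3.22, 2.80, 2.84, 3.08 and 2.52 after PPE. Here too the groups did not overlap, with a rise of 1.04 (SE 0.15, 2.06-fold, limma adjusted p = 0.000228). Macrophage list means were higher in the same PPE arrays, as given above, and their part in both results was not tested.

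Kcnk3 (TASK-1), an acid-sensitive channel that holds the resting potential of vascular muscle, went the other way. It read 3.72, 2.92, 2.54, 3.82 and 2.51 in sham and 2.04, 2.52, 1.59, 1.76 and 1.12 after PPE. PPE 2 was level with the lowest sham array and the other PPE arrays were below the sham range. The fall was 1.30 (SE 0.32, 2.46-fold, limma adjusted p = 0.0077). It was not called without sham 1, 2 or 4 or PPE 1, 3, 4 or 5 (adjusted p up to 0.0212), with the scanner's or the deposited ratios, or with no filter on dim signal. Brown fat also uses this channel. Of 8 adipocyte markers 2 fell past limma's threshold and 5, these included, were lower at an unadjusted p under 0.05. Their list means ran from 4.76 to 5.83 in sham and from 3.62 to 5.14 after PPE. The part of brown fat was not tested. Kcnk1 (TWIK-1) gave -0.35 (-0.64 to -0.07) and did not pass.

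Of 10 calcium channel pore subunits, 7 were tested and none passed limma's threshold, while 3 had an unadjusted p under 0.05. The median log2 difference of the 7 was 0.23, beside 0.02 over all names. Cacna1h was called by SAM, the study's test written anew here, and by limma with the scanner's or the deposited ratios. Cacna1c encodes Cav1.2, the pore through which most calcium enters arterial muscle. Its single probe, whose first bases are printed above, was well above background on 1 sham array and on no PPE array. The gene is therefore given neither as changed nor as unchanged.

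Cacna1d, the related pore Cav1.3, read 1.10, 0.70, 0.53, 1.05 and -0.07 in sham and 2.78, 1.55, 1.43, 1.86 and 0.54 after PPE. PPE 5 lay within the sham range and the other PPE arrays above it. The difference of 0.97 (95% interval 0.18 to 1.76) had a limma adjusted p of 0.0572. Leaving out PPE 5 brought it past the threshold, and a dimmer probe gave 0.43 (SE 0.15). The reference signal of the brightest Cacna1d probe was above background on no array, and the part of array signal in these values was not tested. The T-type pores Cacna1g and Cacna1h, which open at low voltage, gave -0.22 (-0.59 to 0.15) and -0.30 (-0.52 to -0.08). A second probe gave -0.64 (SE 0.24) for Cacna1g and 0.03 (SE 0.11) for Cacna1h, and neither of these second probes was called. Cacna1h was the one member whose groups did not overlap without a call in the main fit (limma adjusted p = 0.0389). Its sham values ran from 0.02 to 0.17 and its PPE values from -0.39 to 0.00.

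Alpha2delta and beta subunits carry the calcium channel pore to the membrane and set its gating. Of 8 members 7 were tested, and 1 fell and 1 rose, with a median log2 difference of -0.52. Cacna2d1 encodes the alpha2delta subunit of muscle channels. Its values were 2.23, 2.50, 1.67, 2.25 and 1.99 in sham and 0.51, 1.26, 0.72, 0.67 and 1.07 after PPE, with no overlap. The mean fell from 2.13 ± 0.31 (SD, n = 5) to 0.85 ± 0.31, a log2 difference of -1.28 (SE 0.18, 2.43-fold lower, limma adjusted p = 0.000232). A second probe of the gene was called as well, at -1.18 (SE 0.17). Cacna2d2 and Cacna2d3, alpha2delta subunits known mainly from nerve, gave -0.54 (-1.02 to -0.06) and -0.52 (-1.03 to -0.01), and Cacna2d4 was above background on 2 PPE arrays and no sham array.

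Cacnb2 and Cacnb3 encode beta subunits that smooth muscle pairs with Cav1.2. Cacnb2 read 1.86, 1.25, 1.18, 0.92 and 0.34 in sham and 0.23, 0.56, 0.28, 0.09 and -0.10 after PPE. Sham 5 fell inside the PPE range. The difference of -0.90 (95% interval -1.42 to -0.37) had a limma adjusted p of 0.0124, and 10 of 25 alternatives called it, among them leaving out sham 5. Cacnb3 moved the opposite way, at -1.53, -1.39, -1.34, -1.13 and -1.49 in sham and -0.81, -0.52, -0.67, -1.17 and -0.67 after PPE. PPE 4 lay just below sham 4 and the other PPE arrays above the sham range. The rise was 0.60 (SE 0.14, 1.52-fold, limma adjusted p = 0.00455). It was not called without sham 1, 2 or 5 or PPE 2 or 3 (adjusted p up to 0.0140), with slide as a fixed block, with the scanner's or the deposited ratios, or with sham 5 and PPE 5 left out. Cacnb4, a neuronal beta subunit, gave 0.00 (-0.46 to 0.46).

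**Figure D3:**
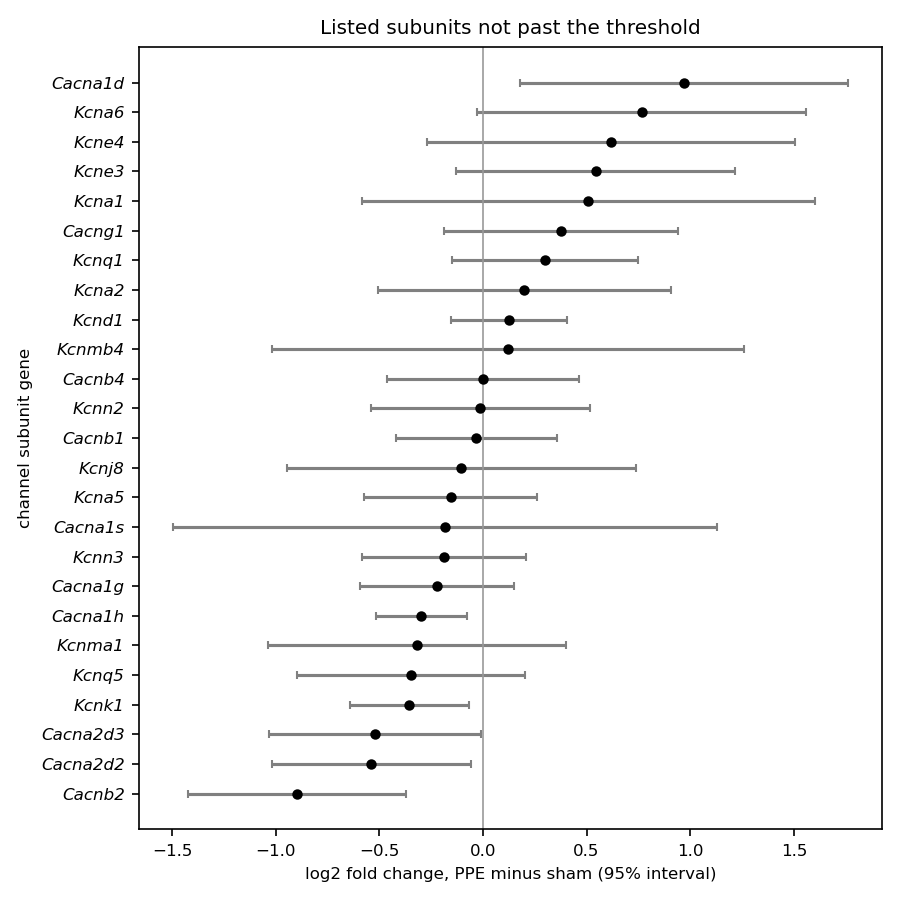
Log2 fold change (PPE minus sham) with its 95% interval for 25 tested subunits of a fixed list that did not pass the threshold. A further 1 of that list is not plotted. Among those plotted, Cacnb2 (-0.90) and Cacna1d (0.97) lie at the ends, and the widest interval, of Cacna1s, runs from -1.49 to 1.13.

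The gamma family includes a skeletal muscle calcium channel subunit and regulators of neuronal glutamate receptors. Of 8 members 5 were tested and none passed limma's threshold or an unadjusted p under 0.05. SAM called none of them either. Cacna1s, the calcium channel pore of skeletal muscle, read -0.06, -2.07, -0.17, 1.75 and -0.81 in sham and -0.53, 0.52, -1.36, 0.03 and -0.93 after PPE. It was highest in sham 4 and PPE 2 and lowest in sham 2 and PPE 3. The list mean of skeletal muscle markers was likewise highest in sham 4 and PPE 2, at 4.35 and 4.22, and lowest in sham 2 and PPE 3, at 1.22 and 0.85. Cacng1 and Cacnb1 were also highest in sham 4 and PPE 2 of their groups. Cacng1 was lowest in sham 1 (-0.87) and PPE 3 (-0.28), and Cacnb1 in sham 2 (-0.54) and PPE 5 (-0.81). The part of skeletal muscle tissue in these values was not tested. Between groups, Cacna1s differed by -0.18 (95% interval -1.49 to 1.13), Cacng1 by 0.37 (-0.19 to 0.94) and Cacnb1 by -0.03 (-0.42 to 0.36). Of 7 tested skeletal muscle markers none passed limma's threshold or an unadjusted p under 0.05. Cacng4 was above background on no array.

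**Figure D4:**
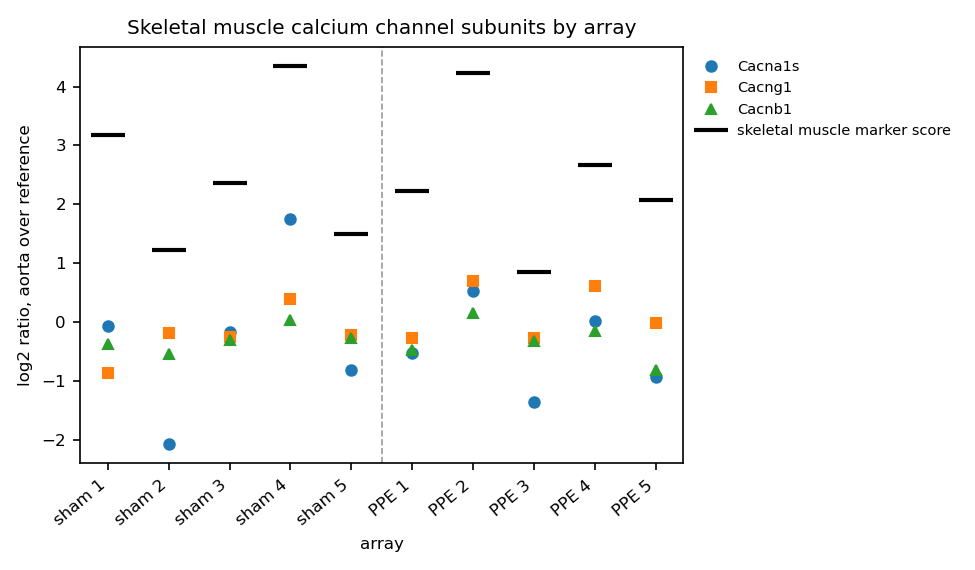
Log2 ratio of aorta over reference on each of the 10 arrays for the skeletal muscle subunits Cacna1s, Cacng1 and Cacnb1, with the mean log2 ratio of 7 skeletal muscle markers as black bars. The bars are highest in sham 4 (4.35) and PPE 2 (4.22), where Cacna1s is also highest.

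More than 1 probe was tested for 19 members. The probes of 8 of these had opposite signs, and none was called in opposite directions. All 15 called members had the same sign within slide 1 and within slide 2, the slides that held both groups. Slide 1 held sham 1, PPE 1 and PPE 2, and slide 2 held sham 2, sham 3, PPE 3 and PPE 4. These arrays also made the calls, so the shared sign is not independent support. In all, 13 of the 15 changed by more than 2-fold.

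Genes that work with these channels but bear other names were read from a list of 69, of which 59 were tested. Of these 14 fell and 6 rose, beside 9.96% lower and 13.8% higher over all names, with a median log2 difference of -0.30. Under median centring none passed in either direction, with 10 at an unadjusted p under 0.05 in limma, also not counted over all names. Caveolae, membrane pockets that hold calcium and potassium channels, and their anchoring proteins gave the most falls: 6 of 7 tested genes, with a median of -1.36, beside 9.96% lower and a median of 0.02 over all names. Smooth muscle markers, given above, fell for 8 of 10 genes with a median of -1.81, and adipocyte markers for 2 of 8 with a median of -0.74, and the part of these cells in the partner genes was not tested. The caveolar coat gene Ptrf fell by 1.60 (SE 0.16), Cav1 by 0.90 (SE 0.17) and Cav2 by 1.49 (SE 0.12) on the log2 scale. Jph2, which ties the membrane to calcium stores, fell by 1.66 (SE 0.24), and Cav3 and Ahnak fell too.

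Of 22 genes of calcium release, entry and removal, 5 fell and 4 rose, beside 9.96% lower and 13.8% higher over all names. The calcium pump of the stores Atp2a2 fell by 1.93 (SE 0.23) and the release channel Itpr1 by 1.45 (SE 0.21), with Atp2a3, Mrvi1 and Stim1 also lower. The store-operated channel gene Orai2 rose by 1.87 (SE 0.15) and Orai1 by 1.08 (SE 0.14), with Slc8a1 and Atp2b1 also higher. Stim1, a calcium sensor that opens these channels, fell by 0.84 (SE 0.11), while the other sensor Stim2 gave 0.19 and Orai3 gave 0.15, and neither passed.

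Of 17 other tested cation and chloride channel genes, the calcium-activated chloride channel Ano1 fell by 1.56 (SE 0.23) and Pkd2 by 0.66 (SE 0.15), and Trpv2, a cation channel known from macrophages, rose by 1.06 (SE 0.22). Among 6 tested partners of BK, ATP-sensitive and Kv4 channels, the BK accessory gene Lrrc55 rose by 1.28 (SE 0.27) and Abcc8, a sulfonylurea receptor, fell by 0.69 (SE 0.15). The 7 genes of the sodium-potassium ATPase had a median of -0.60 and none passed limma's threshold, with 2 higher and 3 lower at an unadjusted p under 0.05.

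Promoters of members were searched for the CArG box, the element bound by serum response factor that many smooth muscle genes carry. In RefSeq promoters of build GRCm38.p6, from 250 bases before to 50 after the start, it was found on either strand in 0 of 87 member genes with an entry, 12 of them called, and in 1.81% of 27025 genes. No match says only that these letters are absent from this window.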

How the data were processed

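RNA of 5 sham and 5 PPE aortas was hybridised against a common reference, without dye swap, and groups were taken from the labels. The authors extracted spots with Feature Extraction 10.7.3.1 on mm9 designs, and per the study's methods excluded arrays that hybridised poorly or were outliers. Spot signals as deposited are linear intensity values. The scanner's deposited LogRatio gives red over green as log10, and the authors' series matrix holds log2 ratios. The last equalled log2 of processed red over green on 100% of spots (tolerance 1e-04).

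In R 4.3.3 with limma 3.58.1, mean signals were background-corrected by normexp (offset 50), which understates changes of dim probes, and normalised by loess within arrays. Controls and outlier spots were left out, no spot was saturated, and replicate spots were averaged. Testing required red signal well above background on 5 or more of 10 arrays, for at least a share of 0.5 of a probe's spots. Each of 22520 names was represented by its brightest tested probe. Groups were compared by lmFit and eBayes, two-sided and unpaired, with Benjamini-Hochberg adjustment over all names and a threshold of 0.01. Intervals are the fit's, unadjusted. Sham 5 lacked a value for 1 tested member, Kcnk5, which was fitted on the other 9 arrays. The fit was tested on simulated data. SAM, the study's test, was written anew as an alternative with 100 relabellings.

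Named subunits were all members past the threshold, a list of 43 subunits of arterial, leukocyte, nerve and striated muscle cells, and the 3 largest differences in each direction among members not past the threshold. Members, lists and this rule were chosen with earlier results of these data known. The number of arrays limits the precision. Values of 2 members are not reported here, though the counts include them.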

Additional observations from a re-analysis of the deposited data

Results flagged for a closer look

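Over 108 groups of 5 values checked (each named gene or list mean in each group), 3 held an array whose gap to its neighbour exceeded Dixon's critical value of 0.71, and chance gives about 5% of groups. Kcnq1 in sham 1 was 1.64, with the next sham array at 1.02. The smooth muscle list mean in PPE 2 was 2.69, with the next PPE array at 1.79. The B cell list mean in sham 3 was 0.834, with the next sham array at -0.35, and none of 4 tested B cell markers passed limma's threshold or an unadjusted p under 0.05 between the groups.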

How the results depend on the processing

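Of 25 alternatives, median centring in place of loess was the only one that moved the counts of channel subunits or partner genes called by over 1.5 times. It gave 0 channel subunits higher, 0 lower, 0 partner genes higher and 0 lower, and it left 408 higher and 8 lower calls over all names. The cause was not tested. Of the 15 called members, 8 were called under every other alternative, and none changed sign. Leaving out 1 array in turn gave 4 to 7 channel subunits higher and 6 to 12 lower, and 5 to 7 partner genes higher and 11 to 19 lower. Over all names it gave 2512 to 3615 higher and 1754 to 2352 lower. SAM gave 6 channel subunits higher and 12 lower, and over all names 4875 higher and 3263 lower, against 3116 and 2243 with limma; partner genes were not counted under it. With slide as a fixed block 4 channel subunits were higher and 13 lower, beside 3146 and 2310 of all names. In that fit sham 4, sham 5 and PPE 5, each alone on its slide, add nothing to the group difference. With scan day 5 were higher and 12 lower, beside 3292 and 2603 of all names. With sham 5 and PPE 5 left out, a choice made after seeing the data, 6 were higher and 11 lower. The counts over all names were then 3512 and 2396. Same-numbered arrays of the 2 groups deviated together with correlations of 0.29, -0.30, 0.16, -0.14 and 0.52. Of 5 sham arrays, 1 was closest to the PPE array of its own number. The labels state no pairing, and so few correlations cannot show whether there was one. With the replicate block 6 channel subunits were higher and 12 lower, and 7 partner genes higher and 18 lower. Over all names it gave 3022 higher and 2283 lower. Under this block Kcna3 and Cacnb3 were not called, and Kcne4, Cacna1d, Cacnb2 and Kcnip4 were among the members it added. For 10 named genes that passed the threshold in neither setting, the sign differed under some alternative. Brightness over background limits the rest: 47 of 118 members gave no test.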
